A study of Homo sapiens with 7 samples.

Results

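Dense clusters of CTCF peaks were described in K562 cells, an established leukaemia cell line. The members were chosen by the positions of called peaks: overlapping intervals of the control and PDS lists on chromosomes 1 to 22 and X were merged, merged intervals with gaps of at most 5 kb were chained, and chains of at least 5 intervals were kept. Of 39696 merged intervals, 2499 (6.30%, Wilson 95% confidence interval 6.06 to 6.54%) lay in such chains, and the chains numbered 403 among 28463 chains of all sizes. The study asked how G-quadruplexes (G4s), folded structures of G-rich DNA, bear on CTCF occupancy. Untreated K562 cells (control) gave 2 CTCF samples and 1 IgG sample, and K562 cells treated with 10 μM pyridostatin (PDS), a small molecule that binds folded G4s, for 24 h gave 2 CTCF and 2 IgG samples. All groups came from the same line. Peaks were called by the authors once per condition, jointly on both CTCF replicates over IgG, so each condition has 1 list, no value per replicate, no SD and an unknown sequencing depth. Wilson intervals therefore cover counting error only, and no test over samples was possible. The control list placed 1635 of its 33069 peaks on these chromosomes in chains (4.94%), and the PDS list 2240 of 32893 (6.81%).

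CTCF is a zinc-finger protein that binds a long, oriented DNA motif. It acts at insulators and, with cohesin, at the anchors of chromatin loops, where the orientation of the motif matters. Most CTCF sites stand alone, whereas some loci, including imprinting control regions and protocadherin promoters, are known for arrays of sites. K562 cells carry the BCR-ABL1 fusion, which joins parts of chromosomes 22 and 9.

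The sequences of the chains were read from GRCh37 (hg19) and are shown to make the motifs behind the later counts visible. The first set holds, in capitals, exact matches to the CTCF consensus derived from ChIP-exonuclease data, as the study's introduction gives it. Matches were searched on both strands in the central 200 bp of each member, so a named chain not shown may hold one elsewhere in an interval. For each named chain with a match, that of the highest-fold member with one is printed, with 10 flanking bases on either side.
IGLV2-34 chain consensus, chr22:22929566-22929600, plus strand: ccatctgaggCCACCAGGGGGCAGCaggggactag
IGLV3-10 chain consensus, chr22:23145009-23145043, plus strand: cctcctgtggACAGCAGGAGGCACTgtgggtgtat
DENND1B chain consensus, chr1:197496078-197496112, plus strand: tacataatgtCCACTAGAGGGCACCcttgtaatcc
BCR chain consensus, chr22:23583275-23583309, minus strand: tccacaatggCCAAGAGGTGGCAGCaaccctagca

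The match near IGLV2-34 lay in a member held by both lists, with a fold over IgG of 29.2 among control peaks and 20.4 among PDS peaks. The match in DENND1B lay in a member of the control list only, with a fold of 6.16, and that in BCR in a shared member with folds of 8.72 and 7.83.

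The members of the H19 chain held no exact match to this consensus in their central 200 bp. For its 4 shared members the closest match anywhere in the interval is in capitals, with 1 mismatch in member 1 and 2 mismatches in the others, and these sequences were chosen after the values were seen.
H19 chain, member 1, chr11:2019724-2019758, minus strand: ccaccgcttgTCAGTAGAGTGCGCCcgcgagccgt
H19 chain, member 2, chr11:2021187-2021221, minus strand: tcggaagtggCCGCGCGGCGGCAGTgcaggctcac
H19 chain, member 3, chr11:2021999-2022033, minus strand: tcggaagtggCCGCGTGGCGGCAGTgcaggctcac
H19 chain, member 6, chr11:2023432-2023466, minus strand: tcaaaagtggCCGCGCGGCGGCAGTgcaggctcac

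Members 2 and 3 of the H19 chain were identical at 34 of the 35 bases printed, members 2 and 6 at 33 and members 3 and 6 at 32. The match of member 1 is a different sequence. All 4 lay on the minus strand, the strand on which H19 is transcribed. The introduction of the study also gives a core of 14 letters from another CTCF motif, CCGCGNGGNGGCAG (N is any base), which was searched on both strands after these sequences had been seen. Members 2, 3 and 6 held it exactly, member 6 at 3 positions, and among the 403 chains no other had a member with it. It was in 25 of all 39696 intervals (0.0630%) and in the 200 bp at the centre of 20 (0.0504%), and in none of the 1843 gap midpoints described later. The last set holds G4 motifs of the 3 chains with the most intervals. A G4 motif, searched on both strands, was defined as 4 tracts of 3 or more G separated by 1 to 7 nt, and it is in capitals on the G-rich strand.
IGLV2-34 chain G4 motif, chr22:22925726-22925768, minus strand: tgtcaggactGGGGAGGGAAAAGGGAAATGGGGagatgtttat
chain downstream of IGLL5 G4 motif, chr22:23284105-23284149, minus strand: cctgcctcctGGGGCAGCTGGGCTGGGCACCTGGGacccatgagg
IGLV3-16 chain G4 motif, chr22:23096245-23096292, plus strand: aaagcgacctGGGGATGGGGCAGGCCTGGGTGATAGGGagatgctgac

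The G4 motif near IGLV2-34 lay in a member of the control list only (fold 26.1), and the others lay in members held by both lists. A match to either motif is a description of the sequence, not a bound site.

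Chains of 5 intervals were the most frequent, with 215 of the 403, followed by 85 of 6, 49 of 7, 25 of 8 and 7 of 9. Another 22 chains held 10 or more, up to 23 intervals. The median chain spanned 7900 bp (quartiles 5855 and 10665 bp), from 1800 bp for an intergenic chain of 5 at chr1:48203701-48205500 to 34320 bp for the longest. The peaks covered a median of 37.1% of the span. Neighbouring members were closer than the limit of 5 kb required. The median of the 2096 gaps within chains was 450 bp (quartiles 250 and 1300 bp), and 1485 gaps (70.8%) were at most 1 kb. Around the limit, 403 gaps genome-wide measured 4500 to 5000 bp and 398 measured over 5000 to 5500 bp. At the limit on number, 215 chains held 5 intervals and 512 held 4, and 21 of those with 5 had a gap over 4500 bp.

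The chains were mixed, with most holding intervals of both lists and intervals of the PDS list only. Of the 2499 members, 1232 (49.3%, 47.3 to 51.3%) were held by both lists, against 64% of all merged intervals. The PDS list alone held 940 members (37.6%, 35.7 to 39.5%), against 17.7% of all intervals, and the control list alone held 327 (13.1%, 11.8 to 14.5%), against 18.3%. An interval of 1 list lengthens a chain as much as a shared one, so these shares follow in part from how chains were built and carry no test. At least 1 PDS-only interval stood in 384 chains (95.3%), and at least 1 control-only interval in 217 (53.8%). PDS-only intervals outnumbered control-only intervals in 304 chains, the reverse was found in 39, and the numbers were equal in 60. Without chromosomes 9, 13 and 22, a choice made after seeing the data, the shares were 50.6% both, 38.1% PDS-only and 11.2% control-only over 342 chains.

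The share of PDS-only intervals was higher in longer chains up to a length of 6 to 9. It was 8.42% of the 21355 intervals that stood alone, 25.02% in pairs, 31.5% in chains of 4, 36.7% in chains of 5 and 38.4% in chains of 6 to 9. In the same order, control-only intervals made up 21.0%, 16.6%, 13.7%, 12.1% and 12.01%. In chains of 10 or more, which lay mostly on chromosome 22, PDS-only intervals made up 37.7% and control-only intervals 20.5%. Only 46 chains held 5 or more members shared by both lists, so most chains passed the limit through intervals of 1 list.

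**Figure D1:**
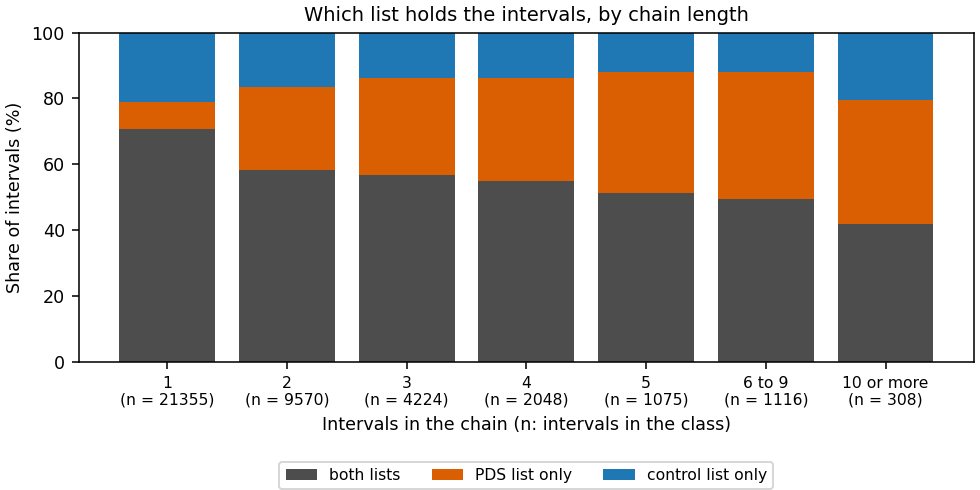
The stacked bars give, for each number of intervals in a chain (x axis, with the number of intervals in the class), the share of intervals in percent held by both lists, by the PDS list only or by the control list only. The share held by both lists falls from 70.6% for single intervals to 41.9% in chains of 10 or more, and the control-only share is 12.01% in chains of 6 to 9 and 20.5% in chains of 10 or more.

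Wide intervals of both lists often stood next to narrow intervals of 1 list. PDS-only next to shared intervals made 932 of the 2096 neighbouring pairs (44.5%), with a median gap of 430 bp, and shared next to shared made 414 (19.8%), with a median gap of 790 bp. PDS-only next to control-only intervals made 229 pairs with a median gap of 240 bp. Of the PDS-only members, 744 (79.1%) lay within 1 kb of a shared interval, as did 206 (63.0%) of the control-only members. Closeness to other intervals chose the members, so these shares are not compared with those outside chains. Members at the ends of chains were held by both lists in 456 of 806 cases (56.6%), and inner members in 776 of 1693 (45.8%). Of the 776 inner shared members, 623 (80.3%) had an interval of 1 list on at least 1 side and 262 (33.8%) on both sides. Shared members had a median width of 780 bp (520 bp over all shared intervals), whereas the median was 100 bp for PDS-only and 120 bp for control-only members, which are the narrowest peaks each list holds. The lists place peaks on grids of different step, and the part of this in the widths and gaps was not tested.

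Folds over IgG were ranked within each list only, because each list has its own IgG samples. Shared members stood near the middle of their list. Their control folds had a median of 26.6 (range 3.21 to 220.8), against 29.0 for all shared control peaks, at median percentiles of 50.1 and 57.4 of the control list. Their PDS folds had a median of 17.2 (3.68 to 65.1), against 18.4 for all shared PDS peaks, at median percentiles of 52.8 and 59.0. Members of 1 list stood low. PDS-only members had a median fold of 11.6 (percentile 20.5) against 13.1 (27.7) for all PDS-only peaks, and control-only members 12.5 (11.7) against 20.9 (31.6) for all control-only peaks. Chromosome 22, whose chains had low folds in both lists as given later, held 139 of the 940 PDS-only and 87 of the 327 control-only members. Its part in these medians was not tested.

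The share of intervals with the CTCF consensus was lower in each class of longer chains. Of the 22 chains in the last class, 17 lay on chromosome 22, and the part of the chromosome in its share was not tested. The share was 12.9% for single intervals, 8.997% in pairs, 7.58% in chains of 3, 6.88% in chains of 4, 6.42% in chains of 5, 5.02% in chains of 6 to 9 and 0.974% in chains of 10 or more. These shares count exact matches in the 200 bp at the interval centre, where 128 members of chains of 5 or more had one (5.12%, 4.33 to 6.06%), against 10.6% of all merged intervals. Shared members held it in 9.74% (8.21 to 11.5%) of cases, against 12.9% of all shared intervals. PDS-only members held it in 3 of 940 cases (0.319%, 0.109 to 0.934%), against 2.38% of all PDS-only intervals, and control-only members in 5 of 327 (1.53%, 0.655 to 3.53%), against 10.3% of all control-only intervals. The level without a peak, measured in 200 bp at the midpoints of 1843 gaps within chains, was 2 windows (0.109%, 0.0298 to 0.395%). Shared intervals were wider in chains, and over whole intervals shared members held it in 21.1% of cases and all shared intervals in 19.8%. Over whole intervals of any list, 10.7% of members and 14.85% of all intervals held it. For PDS-only members the share was 0.319% against 1.37% of all PDS-only intervals, and for control-only members 1.53% against 10.5% of all control-only intervals. With up to 1 mismatch, 18.9% of members and 35.95% of all intervals had a match in the 200 bp. At least 1 member with an exact match in its 200 bp was found in 111 chains (27.5%) and 2 such members in 17 (4.22%), whereas over whole intervals 207 chains (51.4%) had at least 1 member with a match and 56 (13.9%) at least 2. Of the 17 pairs of matches in 200 bp windows, 9 lay on the same strand, 5 pointed away from each other and 3 faced each other.

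G4 motifs overlapped 495 members (19.8%, 18.3 to 21.4%), against 16.1% of all merged intervals. Shared members overlapped a G4 motif in 32.1% of cases, against 21.9% of all shared intervals. In windows of one size the values of shared intervals lay closer together. In 200 bp, 12.5% (10.8 to 14.5%) of shared members had a G4 motif, against 10.8% of all shared intervals, and PDS-only members had one in 8.09% (6.51 to 10.0%), against 7.004% of all PDS-only intervals. Control-only members had one in 9.79% (7.02 to 13.5%), against 5.56% of all control-only intervals, and over whole intervals the values were 9.48% and 5.34%. The midpoints of the gaps had one in 10.0% (8.75 to 11.5%). GC content in these windows, which can move with G4 motifs, had a median of 53.0% in members and 52.0% in all intervals, of 47.0% in control-only members and 41.5% in all control-only intervals, and of 51.5% at the gap midpoints. The part of GC content in the shares was not tested.

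**Figure D2:**
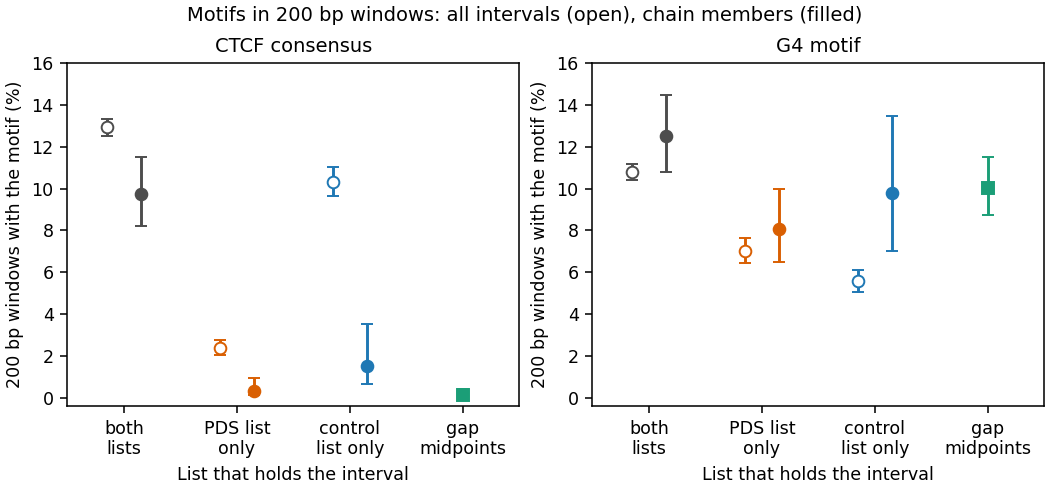
Points give the share in percent of 200 bp windows that hold the CTCF consensus (left) or a G4 motif (right), for intervals by the list that holds them and for midpoints of gaps within chains (squares), with Wilson 95% intervals as bars. Open symbols stand for all merged intervals and filled symbols for chain members: the consensus is at 12.9% and 9.74% in shared intervals and near 0 at the midpoints, whereas the G4 motif is at 10.0% at the midpoints.

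The chains were unevenly spread over the chromosomes. Chromosome 22 held 41 chains with 395 of its 1228 merged intervals (32.2%), or 1.18 chains per Mb of sequence. Chromosome 1 had the most chains, 83, with 480 of its 4840 intervals (9.92%), and chromosome 17 had 35 with 8.97% of its intervals. Chromosomes 13, 14 and X had no chain among 555, 964 and 890 intervals, and chromosome 18 had 1. Of 2535 bins of 1 Mb with an interval, 272 held a member, and the 10 bins with most members held 549 (21.97%) of them. The first bin, from 23 to 24 Mb of chromosome 22, had 150 of its 183 intervals in chains, and the bin before it 125 of 191, where the median bin had 12 intervals in all.

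On chromosome 22 all chains but 1 lay up to BCR. Up to the end of BCR (position 23660224), 40 chains held 390 of 674 intervals (57.9%), and beyond it 1 chain held 5 of 554 (0.903%). On chromosome 9, 10 chains before ABL1 held 56 of 1208 intervals (4.64%), and 10 chains from the start of ABL1 (position 133588430) onward held 79 of 352 (22.4%). BCR and ABL1 are the genes joined in the fusion of these cells, which K562 is known to carry in extra copies. The lists hold no copy number, and its part in the number of chains was not tested. The chains of chromosome 22 also differed in their peaks. Their control folds had a median of 11.6, at a median percentile of 10.4 of the list, and their PDS folds of 8.99, also at 10.4. In chains on chromosomes other than 9 and 22 the percentiles were 49.2 and 39.8. Shared members of chromosome 22 had a median width of 930 bp and reached 8350 bp, against 750 bp and 3900 bp on chromosomes other than 9 and 22, and the consensus was in the 200 bp of 1.52% of members there against 5.99%. Chains on chromosome 9 lay between in fold percentile (27.6 and 30.3) and consensus share (2.96%), and their shared members had a median width of 935 bp, up to 6300 bp.

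**Figure D3:**
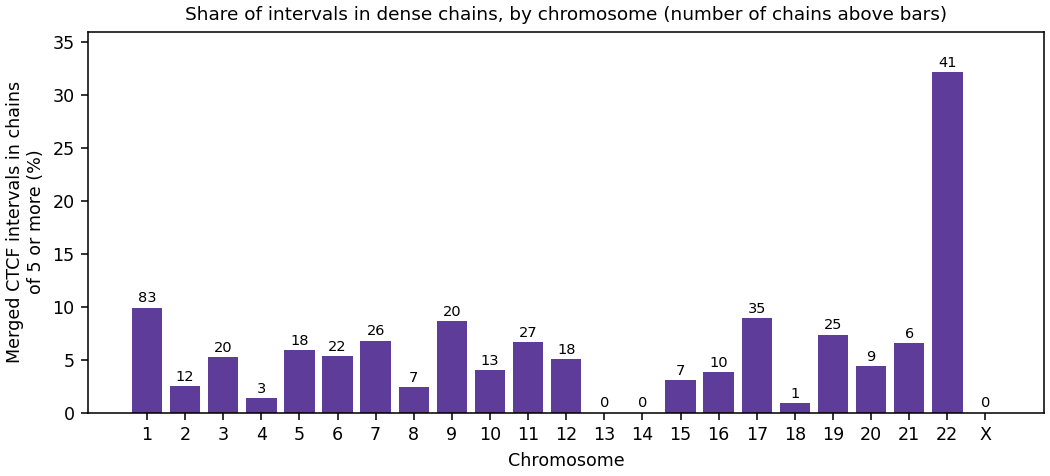
Bars give the share in percent of the merged CTCF intervals of each chromosome that lie in chains of at least 5, with the number of chains above each bar. Chromosome 22 stands at 32.2% with 41 chains, chromosome 1 is next at 9.92%, and chromosomes 13, 14 and X have none.

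All but 2 of the 12 chains with the most intervals lay on chromosome 22, and several of them overlapped the segments from which the immunoglobulin lambda light chain is assembled. The longest by number, chr22:22913751-22942200, held 23 intervals (9 shared, 6 PDS-only and 8 control-only) over the variable segments IGLV2-34, IGLV2-33 and IGLV3-32, 11983 bp from the start of PRAME, a cancer-testis antigen. Its control folds ran from 4.73 to 29.2 and its PDS folds from 3.90 to 20.4. The shared members of this chain included 2 intervals over 5 kb wide, of 5450 and 5250 bp, whereas 7 of its 8 control-only members were 120 bp wide.

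The chain at chr22:23277901-23303760 held 21 intervals (9 shared, 8 PDS-only, 4 control-only). It overlapped no protein-coding or long noncoding RNA gene, and lay 47941 bp from the start of IGLL5, a lambda-like immunoglobulin gene. The chain at chr22:23085601-23117750, over IGLV3-16, IGLV3-15, IGLV2-14, IGLV3-13 and IGLV3-12, held 20 (8 shared, 11 PDS-only, 1 control-only). The chain at chr22:23141901-23161500 over IGLV3-10 held 17 (5 shared, 7 PDS-only, 5 control-only). Of the chains of 13, that at chr22:22772941-22789320 near IGLVI-38 held 5 control-only members, whereas those at chr22:23021901-23039250 near IGLV3-25 and at chr22:23211201-23229600, 360 bp from the start of IGLL5, held none.

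The chain at chr22:22289701-22308900 held 16 intervals (7 shared, 6 PDS-only, 3 control-only) at PPM1F, a protein phosphatase, and that at chr22:21994951-22014800 held 14 (4 shared, 5 PDS-only, 5 control-only) at SDF2L1, an endoplasmic reticulum protein. On chromosome 9, the body of LAMC3, a laminin chain, held 15 intervals at chr9:133918861-133943100 (7 shared, 5 PDS-only, 3 control-only), and a chain of 14 at chr9:133808161-133828250 (4 shared, 6 PDS-only, 4 control-only) overlapped FIBCD1, an acetyl-group receptor, with its last 4 members in intergenic sequence. The members of these chains differed in kind as much as in list: the map of these chains shows wide shared intervals with narrow intervals of 1 list between and beside them.

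**Figure D4:**
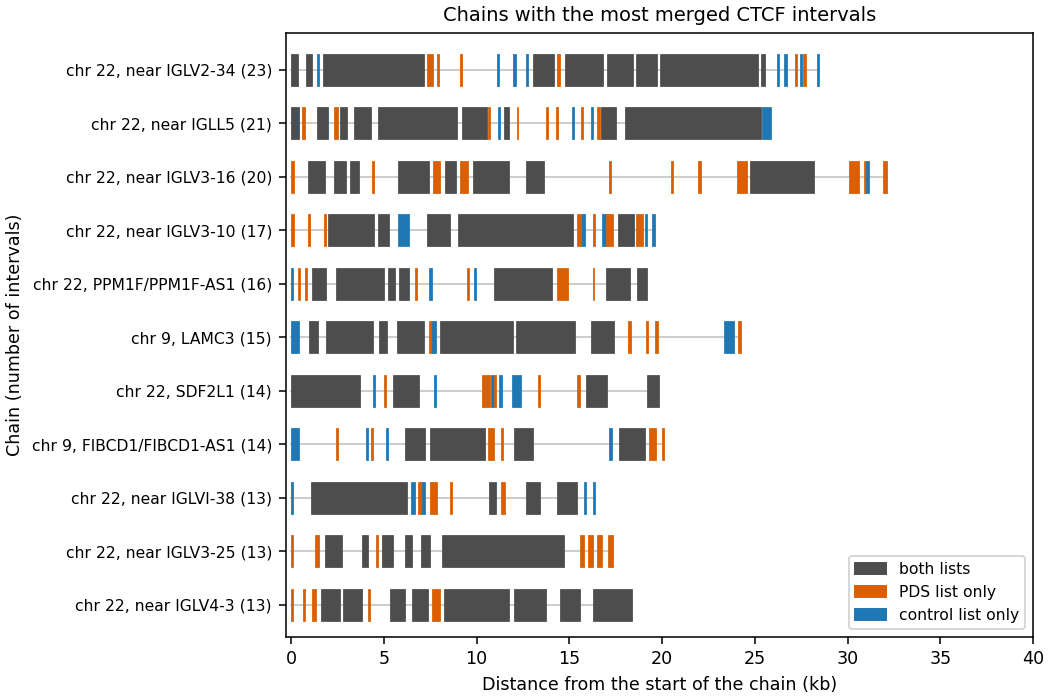
Each row is one of 11 of the 12 chains with the most intervals, drawn to scale with the distance from the chain's start in kb on the x axis, and each block is a merged interval coloured by the list or lists that hold it. The number of intervals, from 23 to 13, is given beside the genes or segments at each chain, and most blocks held by 1 list are narrow.

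Apart from these 12, the chain with the most PDS-only members lay at the start of BCR, which encodes the breakpoint cluster region protein. It held 12 intervals at chr22:23511501-23525900, of which 2 were shared, 7 PDS-only and 3 control-only. The 2 shared members had control folds of 24.3 and 24.4 and PDS folds of 26.01 and 19.65. The PDS-only members had folds of 4.20 to 7.13 except for 1 of 100 bp at 32.6, the highest of the chain in that list. A chain inside PRKAG2, a regulatory subunit of AMP-activated kinase, at chr7:151450001-151458950 held 2 shared and 6 PDS-only members. Its PDS folds had a median of 19.1 (9.59 to 35.0), and its 2 control peaks had folds of 25.3 and 45.1. An intergenic chain at chr1:205453151-205458900, 14824 bp from the start of the kinase gene CDK18, held 2 shared and 5 PDS-only members, with a median PDS fold of 14.1 (5.77 to 22.5), and was the shortest of the 8 chains tied at that number.

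Among the 12 largest chains up to 8 members were control-only. Among the other chains the most was 4, in 1 chain of 12 intervals on chromosome 22 and 3 smaller chains on chromosome 1, and the latter are described because they have the shorter spans. At chr1:151985901-151991750, in a long noncoding RNA gene, 4 control-only and 3 PDS-only intervals formed a chain of 7 with no shared member. Its control folds had a median of 27.4 (16.4 to 30.4) and its PDS folds of 9.54 (9.30 to 20.0). In DENND1B, an exchange factor for a Rab GTPase, a chain at chr1:197488861-197496300 held 4 control-only members and 1 shared one, with control folds from 6.16 to 22.98 and a PDS fold of 25.7 in the shared member. At the start of LUZP1, a leucine zipper protein gene, a chain at chr1:23504221-23512080 held 4 control-only and 1 shared member, with control folds from 7.68 to 26.5 and a PDS fold of 22.3. Only 1 other chain had no shared member, at the start of the potassium channel gene KCNQ5 (chr6:73325951-73334700, 3 control-only and 2 PDS-only members).

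Genes known for CTCF arrays were among the chains in part. Of lists of genes fixed with earlier results known, 2 of 16 imprinted genes overlapped a chain (H19 and CDKN1C), as did 18 of 53 clustered protocadherins, 1 of 39 HOX genes (HOXD10), 2 of 20 blood transcription factors (GFI1B and LYL1), 2 of 6 genes of the MYC domain and the fusion (BCR and ABL1), none of 11 globin genes and none of 15 genes of CTCF and the cohesin machinery. None of 7 further genes, listed because they were examined as loci, overlapped a chain. For comparison, 400 of all 20098 protein-coding genes (1.99%) did. The protocadherins and the long gene bodies share chains, so these counts are not independent.

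The H19 chain at chr11:2019651-2024640 had 6 intervals in 4990 bp, in the imprinting control region of this noncoding RNA gene, which is known for repeated CTCF sites. Its 4 shared members had control folds of 15.98, 31.0, 32.6 and 40.6 from the first to the last position, and PDS folds of 17.2, 11.0, 23.8 and 41.6. The last member was the highest in both lists and the widest, at 1560 bp. The other 2, PDS-only with folds of 11.7 and 18.8, were each 100 bp wide and lay between member 3 and the last member. The 3 near-identical sequences printed for this chain, each with the exact core, came from shared members, the only ones from which sequences were printed. Neither PDS-only member held the core, which was in 1 of all 7025 PDS-only intervals (0.0142%) and 23 of all 25403 shared ones (0.0905%).

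The protocadherin chain at chr5:140777451-140800750 spanned 23300 bp with 6 intervals, 5 of them shared. Each of its 6 intervals held the start of one gene of the gamma cluster, cell adhesion genes with alternative first exons. In order these were PCDHGB5, PCDHGA9, PCDHGB6, PCDHGA10, PCDHGB7 and PCDHGA11. The interval of PCDHGB5 was in the PDS list only, with a fold of 15.3. The control folds of the other 5 were 7.79, 49.9, 21.1, 56.8 and 43.1, and the PDS folds 12.2, 17.5, 10.8, 27.8 and 31.2. The starts of PCDHGA9 and PCDHGA10 had the lowest control folds and the lowest PDS folds among these 5. All 18 genes counted share this chain because their bodies end at common exons.

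The CDKN1C chain at chr11:2906051-2914450 spanned the start of this cyclin-dependent kinase inhibitor gene with 4 shared and 2 PDS-only members. The shared ones had control folds of 57.6, 106.2, 16 and 37.7 and PDS folds of 19.6, 27.5, 10.7 and 16.2, so their order was the same in both lists. Of its members, 4 overlapped a G4 motif, and GC content in the 200 bp at the promoter member was 80.5%. HOXD10, a homeobox gene, carried 7 intervals at chr2:176974601-176984800 (3 shared, 3 PDS-only and 1 control-only), and the member with the highest control fold (54.8) had a PDS fold of 16.1, below that of member 2 (21.45), which had a control fold of 15.6.

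At LYL1, a basic helix-loop-helix factor of blood cells, 6 of 7 members at chr19:13200051-13216050 were shared, with control folds from 10.8 to 85.2 and PDS folds from 7.77 to 19.3. The chain also overlapped NFIX, a nuclear factor gene, and TRMT1, a tRNA methyltransferase gene, and 2 of its members lay in LYL1. The highest control and PDS folds were at the same member, outside LYL1. At GFI1B, a repressor needed for red cells and platelets, the chain at chr9:135847801-135854350 held 2 shared members with control folds of 31.8 and 57.9 and PDS folds of 19.1 and 24.9, and 3 PDS-only members with folds of 11.9, 8.08 and 12.9, each 100 bp wide. Across ABL1, a tyrosine kinase gene, 7 of 9 members at chr9:133730151-133749360 were shared, and their control folds were at most 17.7 and their PDS folds at most 19.9, with 1 member 6300 bp wide. BCR had 2 further chains in its body, of 6 intervals at chr22:23620251-23633200 and of 5 at chr22:23582201-23585700, and the latter had no fold above 8.72. BCR was the only gene with 3 chains among the protein-coding genes that overlapped one.

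**Figure D5:**
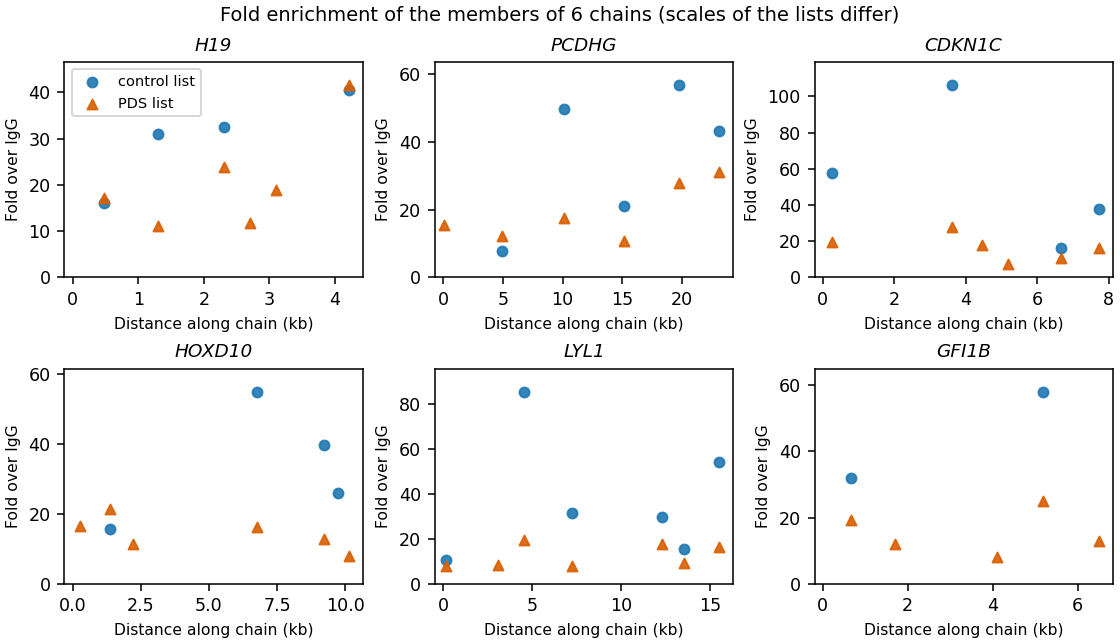
Each panel shows the members of 1 chain at their distance along the chain in kb (x axis) with the fold over IgG (y axis) in the control list (circles) or the PDS list (triangles), whose scales differ, and a member without a symbol of a list was not in that list. At CDKN1C the second member is highest in both lists (106.2 and 27.5), and at H19 the last one is (40.6 and 41.6).

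Chains lay at gene starts, within gene bodies and between genes. A gene start, taken from protein-coding and long noncoding RNA genes, was in 143 chains (35.5%, 31.0 to 40.3%), and 115 held the start of a coding gene. The span was inside 1 such gene body for 164 chains (40.7%) and overlapped no such gene for 75 (18.6%). Immunoglobulin segments were not counted as genes, so chains over these segments alone are without a gene, and their members intergenic. The centres of 261 members (10.4%, 9.31 to 11.7%) lay within 1 kb of a gene start, against 14.6% of all merged intervals. Exons of coding genes held 10.6% of the centres (9.46 to 11.9%) against 7.92% of all intervals. Introns and noncoding gene bodies held 44.3% against 47.6%, and intergenic sequence 34.6% against 29.9%. Without chromosomes 9, 13 and 22, a choice made after seeing the data, introns and noncoding gene bodies held 46.9% against 47.8%, and intergenic sequence 29.9% against 29.5%. There, 11.4% of centres lay within 1 kb of a gene start against 14.6%, and 11.8% in coding exons against 8.02%. Shared members lay within 1 kb of a gene start in 12.99% of cases (16.8% of all shared intervals), PDS-only members in 6.06% (9.81%) and control-only members in 13.5% (11.1%), where the interval of the control-only members, 10.2 to 17.6%, includes the share of all control-only intervals.

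Outside chromosomes 9 and 22 the chains had at most 11 intervals. These examples were chosen after their values were seen. A chain of 11 at chr3:42577921-42590450 overlapped VIPR1, a receptor for vasoactive intestinal peptide, and SEC22C, a vesicle transport gene. Its first and last members lay in coding exons and those between in intergenic sequence. The chain held 6 shared, 4 PDS-only and 1 control-only member, with control folds from 6.49 to 25.96. Another of 11 at chr5:139725601-139743550 covered the starts of HBEGF, a growth factor, and SLC4A9, an anion exchanger, with 5 shared and 5 PDS-only members and control folds up to 58.2. A chain of 10 in PIK3CD, the delta catalytic subunit of phosphoinositide 3-kinase (chr1:9777421-9786300), had 4 shared and 5 PDS-only members, with control folds up to 66.8. In 6 chains every member was shared, each with 5 intervals, among them those at the start of GSTP1, a glutathione transferase (chr11:67339901-67351320), and around NEK8, TLCD1 and RPL23A (chr17:27047041-27055700). Their highest control folds were 116.2 and 46.3, and their highest PDS folds 29.9 and 25.6.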

How the data were processed

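The chains, gene lists and settings were chosen with earlier results of these data known. Per the submitters' processing notes and the study's methods, the authors aligned reads to hg19 with Bowtie2 2.2.3, filtered duplicates and low mapping quality with SAMtools, and called peaks with PePr jointly on the replicates of a condition. For each peak the authors deposited a fold (a ratio over IgG of its condition), a p-value and a score. The fold was used to rank peaks within a list, the p-value to take the 50% of peaks with the smallest values, and the score not at all. The lists hold no counts, so depth and replicate spread are unknown.

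Intervals that overlapped by at least 1 bp were merged. Motifs were searched on both strands of GRCh37, and genes came from GENCODE 44 lifted to that build. Named were the 12 chains with the most intervals (ties by shorter span), the 3 others with the most PDS-only and the 3 others with the most control-only intervals, and listed genes whose body overlapped a chain. Sequences were those of the named chains and the H19 example. One of the 12 chains and some sequences are not reported here. Chaining and motif searches were tested on simulated data, where 200 of 200 planted chains, consensus and core sequences and G4 motifs were found. The chains were planted far apart and the motifs in sequence of A and T only. Gaps just over the limit and matches in GC-rich sequence were therefore not tried. Python 3.11.15 with numpy 2.4.6, scipy 1.17.1 and matplotlib 3.10.9 was used.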

Additional observations from a re-analysis of the deposited data

How the results depend on the processing

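Each setting was varied alone. The number of chains was 255 with a gap of 3 kb, 755 with 10 kb, 188 with at least 6 intervals, 17 from the 50% of each list with the lowest p-values and 112 from the control list alone, and the intervals in them were 1596, 4898, 1424, 98 and 694. The share of members held by both lists was 45.05% at 3 kb, 55.3% at 10 kb, 57.1% with the lowest p-values, 56.6% when intervals within 200 bp were merged, and 42.0% when each list had to cover 50% of the merged interval. Chains with a gene start made up 28.2% at 3 kb, 51.3% at 10 kb, 28.5% with coding genes only and 44.6% from the control list alone. A G4 motif was in 21.5% of members at 10 kb, 34.7% with the lowest p-values, 22.5% after merging within 200 bp, 33.7% with loops up to 12 nt, 10.5% in 200 bp and 22.3% from the control list alone. The consensus was in 4.07% at 3 kb, 6.64% at 10 kb, 4.14% with at least 6 intervals, 6.12% with the lowest p-values, 18.9% with 1 mismatch and 10.7% over whole intervals, and the core in its place was in 0.0800%. The other 21 of 53 values stayed within 1.5 times the main count or inside the Wilson interval of the main share. Among them, merging intervals within 200 bp left 296 chains with 1762 intervals. Leaving out chromosomes 9, 13 and 22, using a single list and searching the core were chosen after seeing the data. Of the 112 chains of the control list alone, 83 overlapped one of the 318 chains of the PDS list alone (74.1% and 26.1% of each).

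No paired analysis was possible because the lists carry no replicate numbers: the authors called each from its replicates together, which also leaves no value without a replicate. The unknown depth limits all counts of intervals held by 1 list, since a peak missing from a list is not shown to be absent. Neither list held a p-value above 1.00e-05, which is below the cutoff stated in the methods, and whether peaks called in 1 list were later removed from the other is not known.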
